A study of Mus musculus with 6 samples.

Results

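Open chromatin at the ends of single genes was examined in peak lists from 6 ATAC-seq libraries of mouse pancreatic islets. Peaks of all lists that overlapped by at least 1 bp were merged into 13633 regions, and regions were chosen by 2 conditions: a peak in at least 3 lists, and a midpoint within 1000 bp of an annotated boundary, start or end, of exactly 1 protein-coding gene. This selected 840 regions (6.16% of all merged regions) at 839 genes, since Tmem267 carried 2 of them. A region in at least 3 lists is called recurrent here. The lists come from islets of 16-week-old mice in 3 groups of 2 libraries. The control-GFP group (labelled Con+Ad-GFP, genotype wildtype) received a GFP adenovirus, the knockout-GFP group (βRicKO+Ad-GFP) lacks Rictor in beta cells and received the same virus, and the knockout-Acsl4 group (βRicKO+Ad-Acsl4) has that deletion and received an adenovirus carrying Acsl4. All 3 groups therefore carry an adenovirus, given for 48 h ex vivo, and all were whole islets, in which cells other than beta cells are expected to keep Rictor. No source used here names the Cre driver. Nothing in the labels says that a group's libraries came from separate mice, so a p-value between groups reflects the spread between these samples alone, and that spread may be technical.

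ATAC-seq marks DNA that the Tn5 transposase can reach. The promoter of an active gene is usually kept free of nucleosomes just upstream of its start, where general and sequence-specific transcription factors bind, and in mammals many such promoters are CpG islands that are open in nearly every tissue. Such islands often hold GC boxes bound by SP-family factors and CCAAT boxes bound by NF-Y. Genes that define a cell type are instead often controlled by distal enhancers, so an open promoter alone says little about cell identity.

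Promoters of 6 genes are shown first because their regions were called in 5 of the 6 lists with high ranks and because they show the base composition and the short elements that are common in the set. Each sequence is the RefSeq promoter of GRCm38.p6, from 250 bases before to 50 bases after the start, written 5′ to 3′ on the gene's own strand. Rab8a lies on the plus strand at chr8:72160950-72161249, Pwwp2a on the plus strand at chr11:43681748-43682047, Stt3a on the minus strand at chr9:36767573-36767872, Evi5l on the plus strand at chr8:4166317-4166616, Pja2 on the minus strand at chr17:64331834-64332133 and Nr1d2 on the minus strand at chr14:18239057-18239356. Capitals mark exact matches, on either strand, to a CCAAT box (CCAAT or ATTGG), a GC box (GGGCGG or CCGCCC), an ETS site (CCGGAAG or CTTCCGG), the core of a cyclic AMP response element (TGACGT or ACGTCA) and the NRF1 core (TGCGCA).
Rab8a: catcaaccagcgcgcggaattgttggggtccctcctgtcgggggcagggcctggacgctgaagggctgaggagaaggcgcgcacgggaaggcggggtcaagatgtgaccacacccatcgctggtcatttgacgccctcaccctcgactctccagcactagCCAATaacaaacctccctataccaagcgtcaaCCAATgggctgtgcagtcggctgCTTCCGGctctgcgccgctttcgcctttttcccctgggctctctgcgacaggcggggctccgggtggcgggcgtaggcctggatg
Pwwp2a: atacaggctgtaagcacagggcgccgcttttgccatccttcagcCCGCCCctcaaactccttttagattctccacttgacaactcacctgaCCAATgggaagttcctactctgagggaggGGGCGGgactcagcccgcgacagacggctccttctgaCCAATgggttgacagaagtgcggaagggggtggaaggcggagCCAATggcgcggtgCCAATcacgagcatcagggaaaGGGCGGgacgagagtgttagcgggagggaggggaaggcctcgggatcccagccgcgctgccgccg
Stt3a: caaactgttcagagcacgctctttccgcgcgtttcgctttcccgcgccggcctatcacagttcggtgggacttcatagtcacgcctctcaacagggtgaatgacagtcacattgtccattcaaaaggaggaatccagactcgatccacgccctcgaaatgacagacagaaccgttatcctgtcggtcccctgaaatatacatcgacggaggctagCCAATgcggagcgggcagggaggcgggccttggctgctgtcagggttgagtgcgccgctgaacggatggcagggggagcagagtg
Evi5l: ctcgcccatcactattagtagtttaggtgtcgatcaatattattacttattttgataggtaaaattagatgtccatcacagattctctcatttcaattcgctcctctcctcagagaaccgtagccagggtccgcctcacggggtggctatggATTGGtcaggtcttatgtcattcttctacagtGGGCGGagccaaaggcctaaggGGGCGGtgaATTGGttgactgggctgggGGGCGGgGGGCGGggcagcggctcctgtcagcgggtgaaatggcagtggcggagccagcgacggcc
Pja2: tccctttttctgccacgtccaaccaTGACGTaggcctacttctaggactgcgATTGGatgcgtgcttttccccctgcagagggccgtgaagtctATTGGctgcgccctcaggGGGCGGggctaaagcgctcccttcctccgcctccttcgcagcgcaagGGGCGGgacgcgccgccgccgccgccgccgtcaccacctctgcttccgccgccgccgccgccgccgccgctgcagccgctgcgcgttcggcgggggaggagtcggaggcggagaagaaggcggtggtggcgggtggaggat
Nr1d2: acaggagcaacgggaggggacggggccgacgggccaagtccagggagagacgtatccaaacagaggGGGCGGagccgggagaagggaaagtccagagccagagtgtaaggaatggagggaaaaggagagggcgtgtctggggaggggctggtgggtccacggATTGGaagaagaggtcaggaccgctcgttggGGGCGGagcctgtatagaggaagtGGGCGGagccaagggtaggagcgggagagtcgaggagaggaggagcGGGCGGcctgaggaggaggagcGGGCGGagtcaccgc

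All 6 windows held at least 1 CCAAT box, and 4 held GC boxes. Rab8a, a GTPase that directs vesicles to the plasma membrane, had CCAAT boxes whose first bases lay at −90 and −58 bp from the start and an ETS site at −35 bp. Pwwp2a, a chromatin protein, had 4 CCAAT boxes and 3 GC boxes, 7 marked matches in all. Stt3a, a catalytic subunit of the oligosaccharyltransferase, had a CCAAT box at −35 bp and no other marked match. Nr1d2, a nuclear receptor of the circadian clock, had 5 GC boxes, of which 2 lay downstream of the start. None of the 6 held the NRF1 core. A match describes letters in these windows and is not evidence of a bound factor. GC content ran from 54.3% in Evi5l to 70% in Pja2.

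The libraries differed widely in how many of the 840 regions they called. The list lengths were 4442 and 1628 peaks for control-GFP libraries 1 and 2, 2206 and 4257 for knockout-GFP libraries 1 and 2, and 525 and 5874 for knockout-Acsl4 libraries 1 and 2. Recurrent 1-gene regions were called in 826 cases (98.3%, exact Clopper-Pearson 95% interval 97.2 to 99.1) in control-GFP library 1 and 183 (21.8%, 19.0 to 24.7) in control-GFP library 2. Knockout-GFP libraries 1 and 2 called 746 (88.8%) and 837 (99.6%), and knockout-Acsl4 libraries 1 and 2 called 124 (14.8%) and 34 (4.05%). Intervals cover counting error only, and the sources used here give no read depth. Of their own list these peaks made up 34.0% in knockout-GFP library 1, 24.2% in knockout-Acsl4 library 1, 19.8%, 18.7% and 11.3% in knockout-GFP library 2, control-GFP library 1 and control-GFP library 2, and 0.579% in knockout-Acsl4 library 2, whose list is the longest. Knockout-Acsl4 library 2 stood apart from the other 5, and the set rests mainly on 3 lists: 537 regions (63.9%) were called in exactly control-GFP library 1, knockout-GFP library 1 and knockout-GFP library 2. A further 88 were called in those 3 and in control-GFP library 2, and 64 in those 3 and in knockout-Acsl4 library 1. Since presence in the lists chose the regions, these shares describe the set and are not tested. Leaving out control-GFP library 1, knockout-GFP library 1 or knockout-GFP library 2 left 211, 285 or 201 regions that met the conditions.

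**Figure D1:**
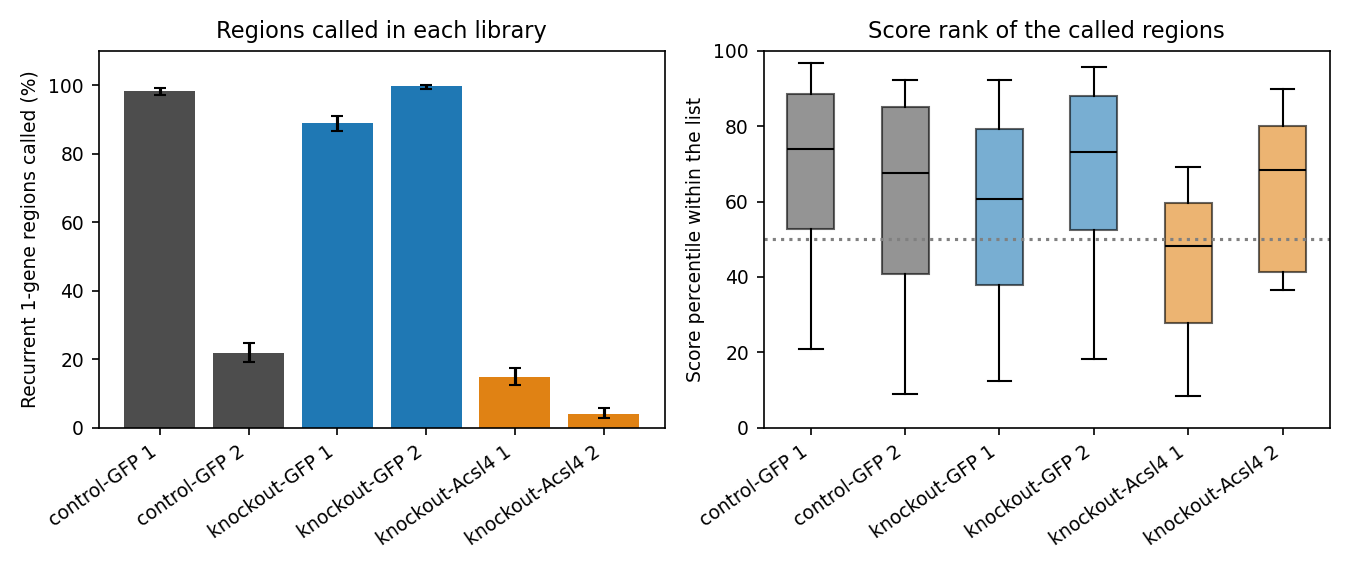
Left, percent of the 840 recurrent 1-gene regions with a peak in each library (bars, with exact 95% intervals for counting error); right, score percentile of their peaks within each list (box, quartiles and median; whiskers, 5th to 95th percentile; dotted line, middle of the list). Control-GFP library 1, knockout-GFP library 1 and knockout-GFP library 2 called 98.3%, 88.8% and 99.6% of the regions, and the other 3 called 21.8% or fewer.

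Recurrence was mostly at the minimum the rule allows. Of the 840 regions, 639 were in 3 lists, 173 in 4, 27 in 5 and 1 in all 6. The region in all 6 lists lies at Ripk2, a kinase that relays signals from the intracellular NOD receptors (chr4:16163379-16164266, 888 bp). Its peak score, taken here for the −log10 q-value of the authors' caller, was 44.9 and 6.61 in control-GFP libraries 1 and 2, 33.2 and 7.94 in knockout-GFP libraries 2 and 1, and 5.75 and 1.38 in knockout-Acsl4 libraries 1 and 2. Scores can depend on a library's depth, so they are read below as a percentile, the rank of a peak within its own list, where 100 is the highest score. On that scale Ripk2 ranked at 98.5, 91.5, 84.2, 97.5, 63.3 and 8.23 in control-GFP libraries 1 and 2, knockout-GFP libraries 1 and 2, and knockout-Acsl4 libraries 1 and 2. It was high in the first 4 lists and near the bottom of the longest list. The mean percentile of a region, used below, is taken only over the lists that call it, with the highest-ranked peak in each. Lists without a peak do not lower it, so means of different regions can rest on different libraries. For Ripk2 it was 73.9, with the low rank in knockout-Acsl4 library 2 counted.

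Among the 27 regions in 5 lists, Lars2, the mitochondrial leucyl-tRNA synthetase, had the highest mean percentile, 93.9 (chr9:123461878-123462168). Its scores were 84.8 and 42.4 in control-GFP libraries 1 and 2, 72.4 and 90.7 in knockout-GFP libraries 1 and 2, and 13.5 in knockout-Acsl4 library 1, with no peak in knockout-Acsl4 library 2. This region differs from nearly all others in position, as it lies at the 3′ boundary of Lars2, 95095.5 bp from the RefSeq start by midpoint. No peak was screened here for repeats or mapping artefacts, so whether this one reflects open chromatin was not tested. Rab8a followed with a mean percentile of 91.3 and scores of 38.0, 4.87, 9.93 and 18.4 in control-GFP libraries 1 and 2 and knockout-GFP libraries 1 and 2. It had no peak in knockout-Acsl4 library 1 and a score of 3.32, at percentile 87.9, in knockout-Acsl4 library 2. Pwwp2a (mean percentile 87.7) was called in every list but control-GFP library 2, with percentiles of 90.6, 90.8, 96.0, 70.2 and 90.8 in the others. Garem1, an adaptor of growth factor signalling (85.5), Stt3a (85.4), Evi5l, which activates the GTPase function of Rab proteins (84.7), the ubiquitin ligase Pja2 (83.9), Nr1d2 (83.7) and the centromere histone chaperone Hjurp (83.3) came next, and each lacked a peak only in knockout-Acsl4 library 2. Wipi1, a phosphoinositide-binding protein of autophagy (80.1), lacked one only in control-GFP library 2. The region at Ano10, a membrane protein of the anoctamin family, was in 5 lists although its mean percentile was 38.6, so recurrence and rank did not always go together.

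**Figure D2:**
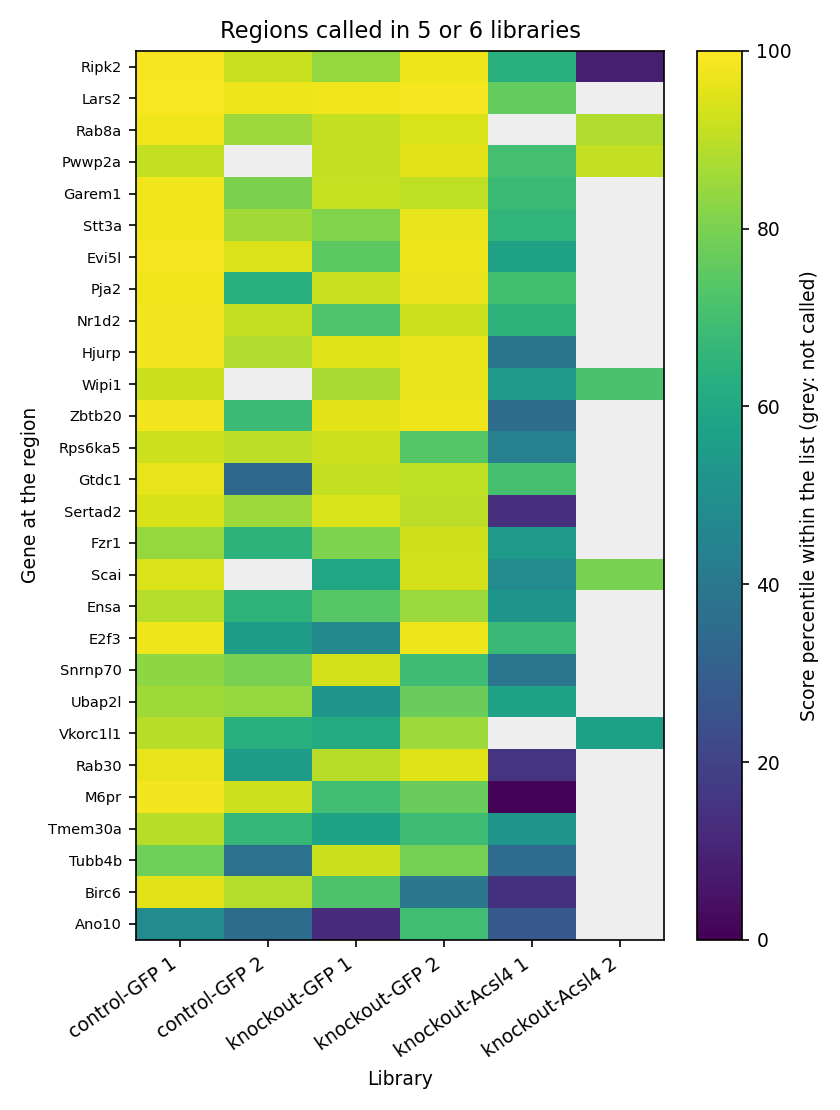
Score percentile within each list for the 28 regions called in 5 or 6 libraries (rows, named by gene; columns, libraries; colour, percentile from 0 to 100; grey, not called). Most rows are bright in control-GFP library 1 and knockout-GFP library 2 and grey in knockout-Acsl4 library 2, and Lars2 is bright in 5 columns with a mean percentile of 93.9.

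Over all 840 regions the mean percentile ranged from 7.65 at Matr3, a nuclear matrix protein that binds RNA, to 95.8, with a median of 65.1 and quartiles of 51.1 and 76.3. The highest value belonged to Oasl1, an interferon-induced relative of the oligoadenylate synthetases (chr5:114922453-114922588). Oasl1 scored 59.8 and 18.4 in control-GFP libraries 1 and 2, 85.4 in knockout-GFP library 2 and 53.3 in knockout-Acsl4 library 1, and was not called in the other 2. At 136 bp it was also the narrowest of the 840, and its midpoint lay at −720 bp relative to the start, outside the promoter window. Apart from Lars2, the other leading regions with a listed start sat closer to it. Ifrd1, a transcriptional co-regulator, reached 94.9 with percentiles of 98.5, 91.6, 94.4 and 95.3 in control-GFP libraries 1 and 2 and knockout-GFP libraries 1 and 2. Samd4b, an RNA-binding repressor of translation (94.6), the tetraspanin Tspan14 (94.5), Gpr155 (94.3), the zinc finger gene Zbtb5 (93.5), the deubiquitinase Usp1 (93.5), the opsin Opn3 (93.2), Rfx2, a transcription factor of ciliated cells (93.2), and the histone demethylase Kdm4b (92.5) were also among the leading 12, as was Lars2. Of the leading 12, 8 were called in 3 lists, control-GFP library 1, knockout-GFP library 1 and knockout-GFP library 2.

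Within lists, peaks at these regions were above the middle rank in 5 of 6 libraries. The median percentile was 73.7 and 67.5 in control-GFP libraries 1 and 2, 60.7 and 72.8 in knockout-GFP libraries 1 and 2, and 48.3 and 68.3 in knockout-Acsl4 libraries 1 and 2. Peaks among the highest-scoring 10% of their list numbered 182 of 831 (21.9%) in control-GFP library 1, 22 (12.0%) in control-GFP library 2, 70 (9.35%) in knockout-GFP library 1, 168 (19.9%) in knockout-GFP library 2, 0 of 124 regions in knockout-Acsl4 library 1, and 2 (5.88%) in knockout-Acsl4 library 2. The list of knockout-Acsl4 library 1 is also the shortest. Mean percentile was higher where more lists called a region, with medians of 62.4, 71.0 and 75.5 for 3, 4 and 5 lists. Recurrent regions at the ends of several genes had a median of 63.9, and recurrent regions away from gene ends 71.9. For 1-gene regions in 2 lists and in 1 list the medians were 50.3 and 32.8.

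Region widths had a median of 408 bp, quartiles of 317 and 516 bp, and a range of 136 to 1280 bp. The median was 393 bp for regions in 3 lists, 472 bp in 4 and 581 bp in 5, and merging over more lists can itself only widen a region. For 1-gene regions in 2 lists and in 1 list it was 302 and 185 bp. The widest were at Setd5, a SET-domain chromatin protein (1280 bp), Klf11, a Krüppel-like transcription factor (987 bp), Ogdh, the E1 subunit of oxoglutarate dehydrogenase (969 bp), the small GTPase Rap2a (966 bp) and the Ras GTPase activating protein Rasa1 (960 bp). After Oasl1, the narrowest were at Ints10 of the Integrator complex (153 bp), Cfap36 (162 bp), the mitochondrial import receptor Tomm20 (166 bp) and the small GTPase Arl5a (172 bp). Wide regions ranked both low and high: the mean percentile was 39.8 at Klf11 and 86.2 at Rasa1. Single peaks in these regions were narrower than the regions. Their median width was 322 and 195.5 bp in control-GFP libraries 1 and 2, 234 and 299 bp in knockout-GFP libraries 1 and 2, and 126 and 204.5 bp in knockout-Acsl4 libraries 1 and 2. The full lists had medians of 240, 183, 205, 214, 125 and 258 bp in the same order. The regions' peaks were thus wider than their list in the control-GFP and knockout-GFP libraries. They were nearly equal to it in knockout-Acsl4 library 1 and narrower in knockout-Acsl4 library 2. In the control-GFP and knockout-GFP libraries, peaks of the other recurrent regions were wider than their list too. Their medians in the same order were 319, 191.5, 232 and 286 bp at several genes, and 319, 242, 248.5 and 303 bp away from gene ends. Across regions, peak width and score had a Spearman correlation of 0.51 in control-GFP library 1 (826 regions), 0.47 in knockout-GFP library 2, between 0.26 and 0.38 in control-GFP library 2, knockout-GFP library 1 and knockout-Acsl4 library 1, and −0.09 in knockout-Acsl4 library 2 (34 regions). These are descriptions over regions of 1 library, which share its depth.

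Peaks at 1-gene regions were wider than peaks at recurrent regions of several genes by a mean of 8.75 bp, with the same sign in 6 of 6 libraries (two-sided exact sign-flip permutation test over libraries, p = 0.03125, the smallest that 6 libraries allow; Benjamini-Hochberg adjusted p = 0.03125 over 3 tests). The adjustment, here and below, covers the 3 tests over all 6 libraries. It leaves out the rank tests between groups, and including them would raise the adjusted values. The width difference did not hold up. It became −2.67 bp (exact permutation p = 0.781) for regions in at least 4 lists, and −3.40 and −3.50 bp without knockout-GFP library 1 or 2. In knockout-Acsl4 libraries 1 and 2 the medians at several genes rested on 33 and 6 peaks. Merged regions went the other way, with a median width of 408 bp at 1 gene and 421 bp at several genes.

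To describe recurrence in a list that had not chosen the regions, each library was held out in turn and recurrence was defined from the other 5 lists. Each list also helps to choose the regions for the other 5, so the 6 differences are not independent. The p-values of the held-out tests do not allow for this. In every library the 1-gene regions found in at least 3 other lists were called more often than those found in 1 other list. The shares were 93.4% against 44.7% in control-GFP library 1, 15.6% against 1.41% in control-GFP library 2, 67.0% against 11.8% in knockout-GFP library 1, and 98.5% against 44.9% in knockout-GFP library 2. In knockout-Acsl4 libraries 1 and 2 they were 11.9% against 0.516% and 2.54% against 1.25%. The gap was wide in the 3 libraries that supply most calls and smallest in knockout-Acsl4 library 2, where it rested on 21 of 827 and 22 of 1767 regions. The mean difference was 30.7 percentage points, in 6 of 6 libraries (exact sign-flip permutation p = 0.03125, adjusted p = 0.03125 over 3 tests). A higher share at regions of at least 3 other lists could be foreseen, since presence in the other lists defined both sets. This p-value is therefore not counted as support for recurrence.

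Held-out ranks moved the same way. The comparison peaks were those that no other list overlapped, so a lower rank for them could be foreseen. Peaks at regions recurrent in the other lists had a median percentile of 86.2, against 29.7 for 1-gene peaks found in no other list, in control-GFP library 1. The values were 68.0 against 39.5 in control-GFP library 2, 72.6 against 28.1 and 85.1 against 30.4 in knockout-GFP libraries 1 and 2, 48.3 against 27.8 in knockout-Acsl4 library 1, where the latter were 14 peaks, and 68.3 against 56.3 in knockout-Acsl4 library 2. The mean difference was 36.1 percentile points, in 6 of 6 libraries (exact sign-flip permutation p = 0.03125, adjusted p = 0.03125 over 3 tests). With every list cut to its 525 best peaks it was 15.3 points (exact permutation p = 0.188), past the threshold no longer. As the direction could be foreseen, neither p-value is counted as support for recurrence. A set of 5 libraries cannot give a p below 0.0625, so leaving out a library gives values and no call.

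**Figure D3:**
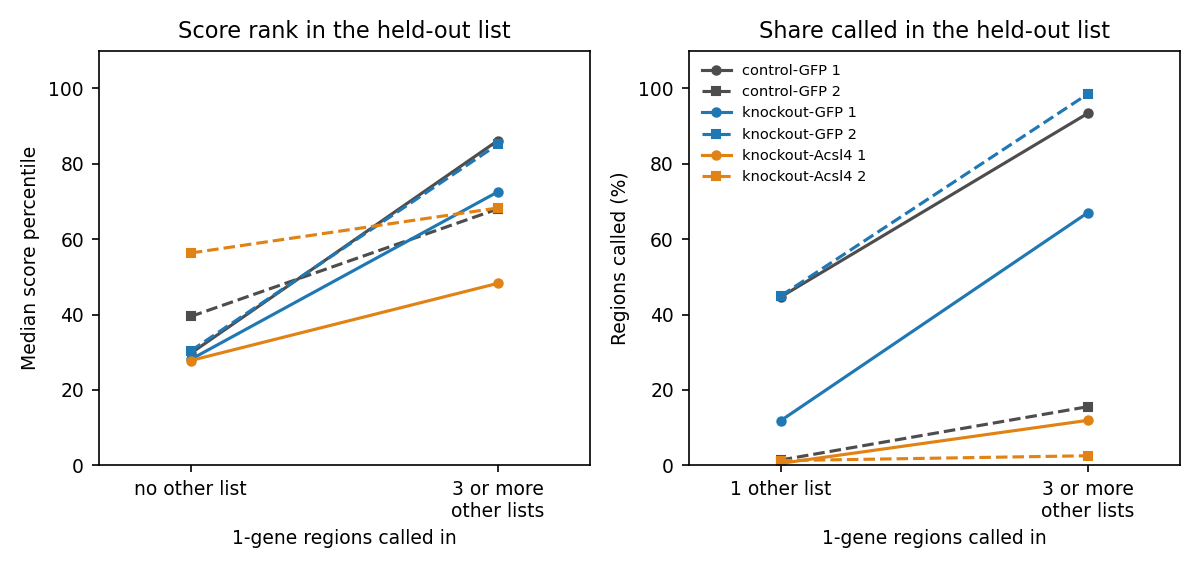
Each library held out in turn (lines; solid with circles, replicate 1; dashed with squares, replicate 2; grey, control-GFP; blue, knockout-GFP; orange, knockout-Acsl4). Left, median score percentile of its peaks at 1-gene regions found in no other list and in 3 or more other lists; right, percent of 1-gene regions found in 1 or in 3 or more other lists that it called. Every line rises, by a mean of 36.1 percentile points on the left and 30.7 percentage points on the right. That direction could be foreseen in both panels.

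The rule allowed either boundary of a gene, and nearly all regions lay at the 5′ side. Strand and start could be read from the RefSeq promoter table for 697 of the 840. Of these, 695 (99.7%, exact 95% interval 98.97 to 99.97) were at the 5′ boundary, 1 at the 3′ boundary only, that of Lars2, and 1 at both, that of the short gene Pop7, a protein of the RNA-processing enzymes RNase P and RNase MRP. The 5′ share was 99.3% for 1-gene regions in 2 lists and 93.9% for those in 1 list. A RefSeq start lay within 1000 bp of 681 (97.7%). Around it, midpoints had a median of −107 bp and quartiles of −178.5 and −17 bp, and 542 (79.6%) were upstream. The median edges were at −299 and 85 bp, and 535 (78.6%) covered the start. The median signed position of midpoints was −58.5 bp in regions of 2 lists and −22.25 bp in regions of 1 list. In regions of 1 list the quartiles were −108 and 91 bp, so midpoints lay on both sides of the start, and 47.6% of these regions covered it. The median midpoint of single peaks ran from −118.5 bp in control-GFP library 2 to −102 bp in knockout-Acsl4 library 2.

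**Figure D4:**
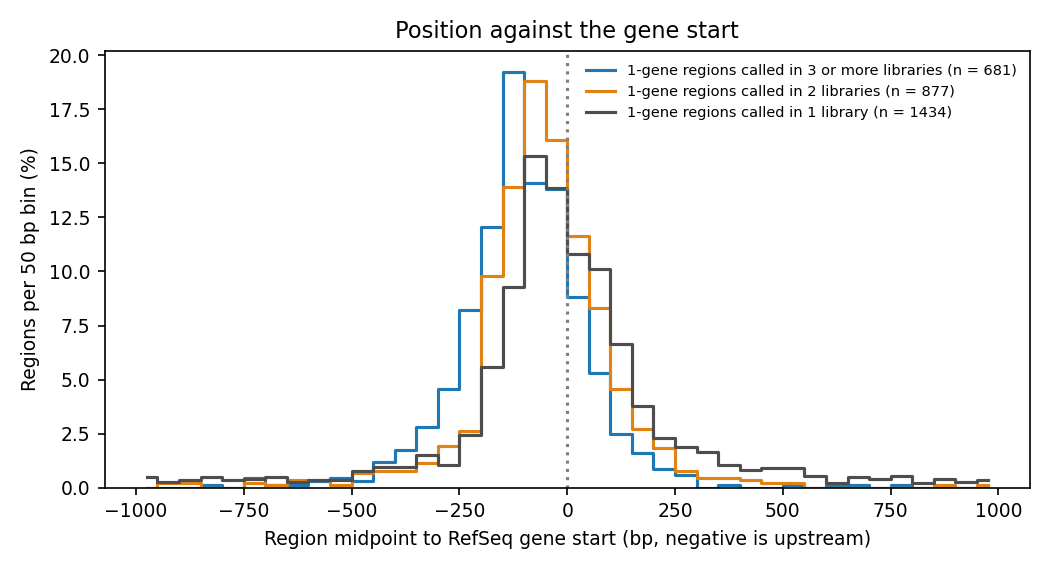
Percent of 1-gene regions per 50 bp bin (y) by distance from region midpoint to the nearest RefSeq start (x, bp, negative upstream) for regions in 3 or more lists (blue), 2 lists (orange) and 1 list (grey). The recurrent regions peak upstream of the start, at a median of −107 bp, and the regions of 1 list spread further downstream, with a median of −22.25 bp.

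The 16 regions with no listed start nearby included strong ones. Apart from Lars2 they lay at the 5′ edge of the annotated gene, ahead of the start that the promoter table lists, which can be far downstream where a gene has several promoters. The region at Zbtb20, a transcriptional repressor, was in 5 lists (chr16:42875074-42875871, mean percentile 79.0) with scores of 40.7, 3.28, 23.4, 31.5 and 3.04 in control-GFP libraries 1 and 2, knockout-GFP libraries 1 and 2, and knockout-Acsl4 library 1, and lay at −371812 bp relative to that start. Hivep3, a zinc finger transcription factor (83.6), Larp1b, an RNA-binding protein (81.0), Setd5 (63.8) and the tyrosine kinase Abl1 (35.8) were others. A non-coding gene had a boundary within 1000 bp of 178 of the 840 (21.2%), in 165 cases an lncRNA, against 17.98% and 15.7% of 1-gene regions in 2 lists and in 1 list. "Exactly 1 gene" therefore refers to protein-coding genes only.

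The promoters under these regions were CpG-rich. Of the RefSeq windows, 729 were overlapped by a region, at 661 genes. Their GC content had a median of 65.0%, against 56.3% for all 21263 windows of protein-coding genes. The ratio of observed to expected CpG had a median of 0.855 against 0.567, and exceeded 0.6, a usual mark of a CpG island, in 93.7% against 47.6%. Windows under 1-gene regions of 1 or 2 lists were close, at 63.7% GC and 0.833.

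Short elements were counted on both strands in the same 300 bases, and the shares are given for windows under recurrent 1-gene regions, under 1-gene regions of 1 or 2 lists, and for all windows, in that order. A GC box was in 86.3%, 76.7% and 46.2%, and a CCAAT box in 57.9%, 45.9% and 38.2%. CCAAT boxes lay at a median of −96.5 bp from the start and GC boxes at −75 bp under recurrent regions. Most of the searched window is upstream of the start, so these medians alone do not show a preferred position. For most other elements the windows under recurrent regions were close to those under regions of 1 or 2 lists, and both stood apart from all windows. The core TGACGT was in 16.6%, 15.8% and 8.49%, the NRF1 core TGCGCA in 19.9%, 18.6% and 9.74%, and the E-box CACGTG in 12.2%, 10.7% and 7.84%. CCACG, the part of the ER stress element beside its CCAAT box, was in 59.3%, 55.8% and 37.4%. The TATA box TATAAA was in 3.98%, 4.40% and 12.6%, the AP-1 site TGANTCA in 3.98%, 3.25% and 6.99%, and CAGATG, an E-box of the NEUROD1 type, in 8.64%, 7.89% and 14.6%. The homeobox core TAATTA of factors such as PDX1 was in 1.10%, 1.67% and 4.53%, and the forkhead site TGTTTAC read by FOXO and FOXA factors in 2.06%, 2.30% and 3.01%. The full CRE TGACGTCA was in 3.70%, 4.69% and 2.23%, and the YY1 core AAGATGG in 7.27%, 8.23% and 6.24%. The ETS site CCGGAAG was in 15.0%, 21.2% and 11.6%, so windows under regions of 1 or 2 lists held it more often than those under recurrent regions. The shares are descriptions, the windows also differ in base composition, whose part was not tested, CCAAT and CCACG can fall in the same longer element, and no window was tested for binding.

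Gene classes differed in how often they carried a region. The background is 839 of 21887 protein-coding genes (3.83%) with a recurrent 1-gene region. Classes were given by 16 gene lists and 23 families read from symbols, and 184 of the 839 genes (21.9%) fell in at least 1. Genes of ER stress and protein quality control had the highest share, 7 of 31 (22.6%, exact interval for counting error 9.59 to 41.1). That interval overlaps those of many classes, for example Rab GTPases (8.24 to 26.7), so the order of classes is uncertain. The interval of heat shock proteins and chaperonins (7.08 to 22.1) lay above the background. Those of FOXO targets (3.21 to 37.9), fatty acid and phospholipid metabolism (2.27 to 28.2) and translation initiation factors (2.96 to 19.6) included it. The gene lists were chosen with earlier results known. Sel1l, of the machinery that removes misfolded proteins from the ER, scored 38.1, 8.63 and 12.9 in control-GFP library 1, knockout-GFP library 1 and knockout-GFP library 2 (mean percentile 90.8, chr12:91849106-91849435). Eif2ak3, the stress kinase PERK, was in 4 lists with 20.98 and 4.41 in control-GFP libraries 1 and 2 and 8.41 and 20.9 in knockout-GFP libraries 1 and 2 (89.9, chr6:70844114-70844701). The chaperone Calr scored 20.0, 6.13, 18.3 and 9.23 in control-GFP library 1, knockout-GFP library 1, knockout-GFP library 2 and knockout-Acsl4 library 1 (83.6). Hspa5, the chaperone BiP, had percentiles of 75.8 and 89.9 in control-GFP libraries 1 and 2 but 18.2 and 84.6 in knockout-GFP libraries 1 and 2 (67.1), so 1 knockout library ranked it low and the other high. Dnajb9 (64.2), the disulfide isomerase Pdia4 (57.1) and the stress transcription factor Atf3 (50.7) completed the list.

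Among other classes of protein handling, chaperones and ubiquitin conjugating enzymes with deubiquitinases had shares above the background, and ubiquitin ligases and proteasome subunits had shares near it. Heat shock proteins and chaperonins had 12 of 90 (13.3%), with Hspa13 (mean percentile 91.6) and Hspa8, the constitutive cytosolic chaperone (81.5), in front, and 23 of the 90 had a recurrent region of any kind at a gene end, against 1353 of all genes (6.18%). Ubiquitin conjugating enzymes and deubiquitinases had 13 of 105 (12.4%), among them Usp1 (93.5), Ube2w (84.8) and Usp22, of the SAGA coactivator (82.2). Ubiquitin ligases named Rnf, Trim or Fbx had 9 of 229 (3.93%), led by Rnf138 (87.8) and Fbxo5, an inhibitor of the anaphase-promoting complex (87.1). Proteasome subunits had 2 of 51 (3.92%), Psma1 (42.6) and Psmc4 (28.0).

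Genes of membrane traffic, on which secretory cells depend, formed another group. Rab GTPases had 11 of 69 (15.9%): besides Rab8a, Rab40c scored 24.6, 14.4 and 11.7 in control-GFP library 1, knockout-GFP library 1 and knockout-GFP library 2 (mean percentile 91.4), and Rab1a of transport from ER to Golgi (83.0) and Rab22a of endosomes (78.1) followed. Vesicle coats, SNAREs and Golgi proteins had 13 of 123 (10.6%), with Sec11c of the signal peptidase (76.5), the retromer subunit Vps26a (71.7), the TRAPP subunit Trappc9 (70.2) and Vps26c (69.5) leading. Their median percentile of 48.7 was below the 65.1 of all 840 regions, whereas that of the Rab genes was 70.2.

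Signalling and chromatin genes followed. MAP and cyclin dependent kinases had 11 of 75 (14.7%), led by Map3k14 of non-canonical NF-kappaB signalling (85.0), Cdk13 (79.2), Cdk20 (77.9) and Map3k3 (74.0). Chromatin modifiers and remodellers had 9 of 56 (16.1%), led by Ep400 (87.1), Ing2 (74.1), the SWI/SNF ATPase Smarca4 (71.0) and the demethylase Kdm3a (70.3). Smarca4 was in 4 lists at percentiles of 51.8, 90.8, 83.3 and 58.0 in control-GFP libraries 1 and 2 and knockout-GFP libraries 1 and 2. Zinc finger genes named Zfp or Zbtb had 15 of 438 (3.42%), with Zfp78 (87.7) next to Zbtb5. The list of immediate early and stress transcription factors had 4 of 27 (14.8%), Klf6 (72.3), Btg1 (70.3), Btg2 (60.4) and Klf10 (55.6). Btg1 and Btg2 are counted in that list but are not DNA-binding transcription factors.

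Shares of translation and mitochondrial genes ran from 3.85% to 9.59%. Cytosolic ribosomal proteins had 5 of 84 (5.95%), led by Rps19 (72.8), and translation initiation factors 5 of 56 (8.93%). The latter family was read from symbols, so it counts the kinases Eif2ak3, also in the ER stress list, and Eif2ak4, which are not initiation factors. Aminoacyl-tRNA synthetases had 2 of 37, Lars2 and Tars (80.6), and splicing factors 3 of 47 (6.38%), Sf1 (82.8), Snrnp70 (72.9) and Ptbp1 (65.1). Mitochondrial carriers and import proteins had 7 of 73 (9.59%), with Slc25a42, a coenzyme A carrier, in front (80.5). The respiratory chain and ATP synthase had 5 of 105 (4.76%), led by Atp5g1 (89.1) and the assembly factor Cox18 (84.3), and mitochondrial ribosomal proteins 3 of 78 (3.85%). The 1-gene rule leaves out ends shared with a neighbour. With any recurrent gene-end region counted, where the background is 1353 of 21887 genes (6.18%), mitochondrial ribosomal proteins came to 11 of 78 (14.1%), splicing factors to 10 of 47 (21.3%) and the respiratory chain to 11 of 105 (10.5%).

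Neither gene that the study altered, Rictor or Acsl4, was in the set. Rictor, the defining subunit of mTORC2, had no merged region at either boundary, and Acsl4, which activates long-chain polyunsaturated fatty acids, and Foxo1, a transcription factor downstream of mTORC2, had 1 each, called in 1 list, so the set does not check the deletion or the virus. Of 29 genes of mTORC2, insulin signalling and FOXO, 2 (6.90%) carried a region. Gsk3b, a kinase that AKT inhibits, scored 13.4 and 5.81 in control-GFP libraries 1 and 2 and 2.70 and 16.3 in knockout-GFP libraries 1 and 2 (71.7), with a low rank, 19.2, only in knockout-GFP library 1. The insulin receptor substrate Irs2 scored 7.01, 1.93 and 4.36 in control-GFP library 1, knockout-GFP library 1 and knockout-GFP library 2 (31.7). FOXO targets had 3 of 20 (15%): the stress sensor Sesn3 (80.2), the mitochondrial superoxide dismutase Sod2 (57.4) and the pseudokinase Trib1 (56.1). Antioxidant defence had 2 of 26, Sod2 and the mitochondrial thioredoxin Txn2 (41.9). Fatty acid and phospholipid metabolism had 3 of 28 (10.7%). Lpcat3, which puts polyunsaturated acyl chains into phospholipids (80.2), was called in control-GFP library 1, knockout-GFP library 1 and knockout-GFP library 2. Acsl1, a relative of Acsl4, scored 11.6 and 5.46 in control-GFP libraries 1 and 2 and 8.66 in knockout-GFP library 2 (79.4), with no peak in the other 3, and Acadm, a medium-chain dehydrogenase, had 65.9.

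No gene of the islet identity lists was in the set. The counts were 0 of 25 for beta cell identity, which includes Ins1, Ins2, Pdx1 and Mafa, 0 of 12 for other endocrine cells, 0 of 15 for dedifferentiation and disallowed genes, 0 of 15 for acinar and ductal cells and 0 of 14 for endothelial, stromal and immune cells, and none of these lists had a recurrent region shared with a neighbour either. At 3.83% of genes, lists of this size would hold few members or none. In 1 or 2 lists, 1-gene regions were present at 3 of the 25 beta cell genes and 0 of the 12 other endocrine genes, beside 2834 of all 21887 protein-coding genes (12.9%), and the labelled tissue could not be checked from this set. The housekeeping list also had 0 of 20, with 12 of the 20 in 1 or 2 lists and 1 at a recurrent region of several genes. Large families with narrow tissue use were empty: 0 of 1110 olfactory receptors, 0 of 355 vomeronasal receptors, 0 of 109 keratins and keratin-associated proteins and 0 of 72 defensins. Ion channels had 1 of 166 (0.602%), Trpc1, solute carriers outside the Slc25 family 9 of 328 (2.74%), and predicted genes 9 of 1748 (0.515%). Genes silent in islets had 0 of 20, genes of RNA polymerases, Mediator and TFIID 4 of 82 (4.88%), transmembrane proteins named Tmem 13 of 238 (5.46%) and coiled coil proteins named Ccdc 6 of 137 (4.38%).

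**Figure D5:**
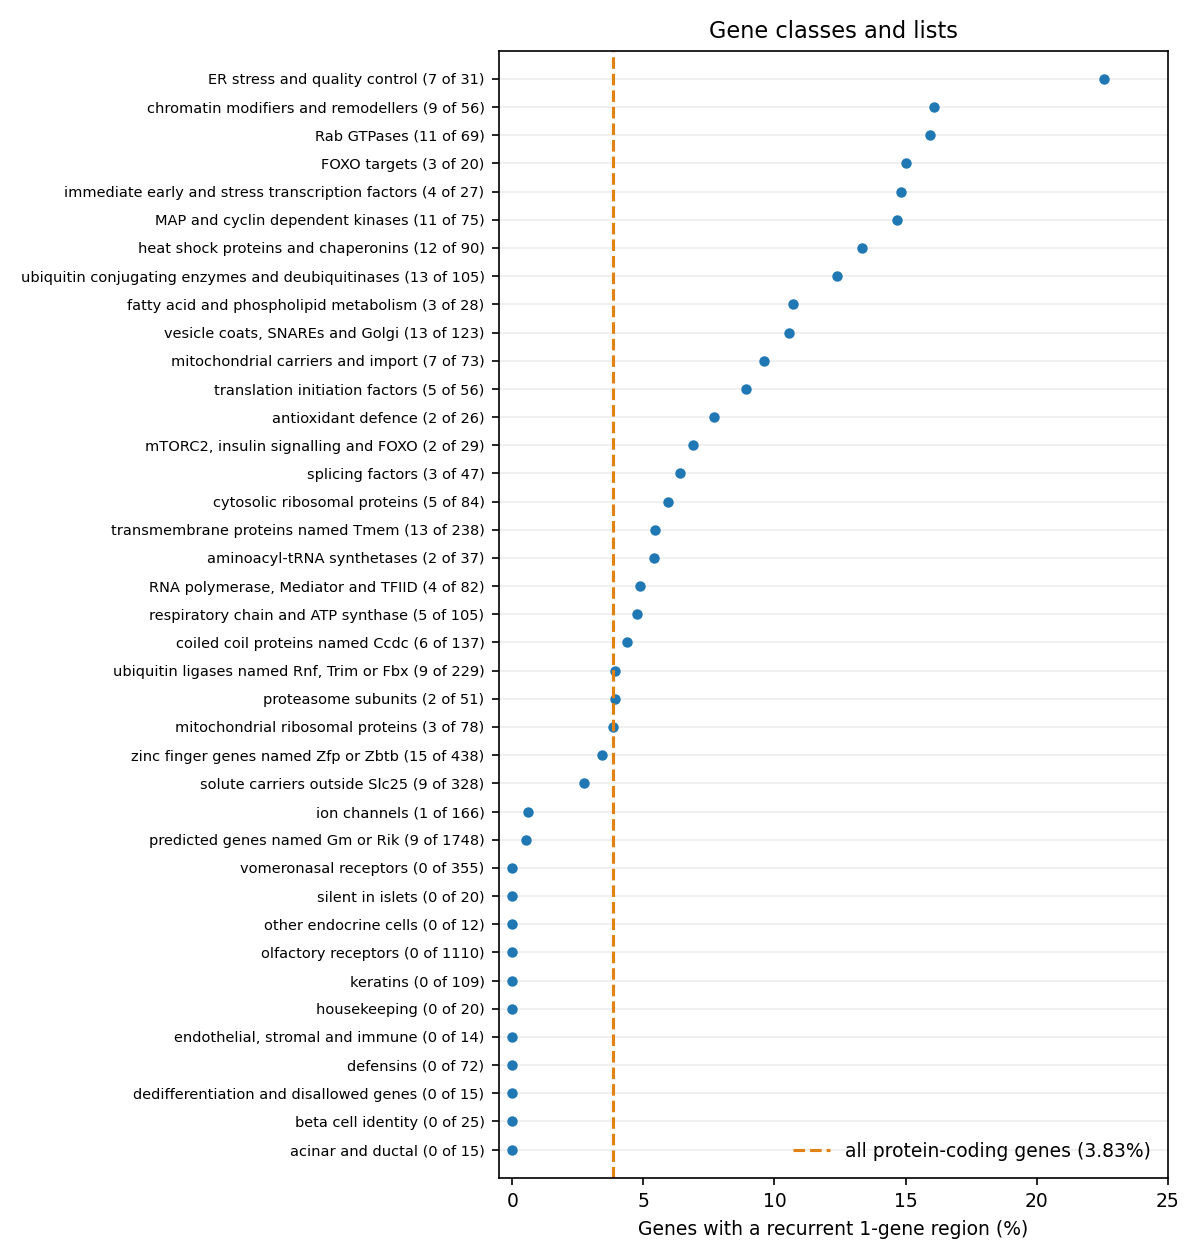
Percent of the genes of each class or list with a recurrent 1-gene region (points; counts beside the names), with the share over all protein-coding genes as a dashed line (3.83%). ER stress and quality control is highest at 22.6% (exact interval for counting error 9.59 to 41.1, which overlaps those of many classes). The olfactory and vomeronasal receptors and the islet identity lists are at 0.

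Autosomes carried 837 of the genes, 4.05% of theirs, with a range from 2.92% on chromosome 2 to 6.65% on chromosome 18. Chromosome X had 2 of 966 genes (0.207%), Maged1 (mean percentile 23.3) and Asmt, the last enzyme of melatonin synthesis (84.6), and chromosome Y 0 of 256. Chromosome X was lower for 1-gene regions of any recurrence too, with 7.14% of its genes against 17.4% on autosomes. Genes in the set were longer than most, with a median of 31093 bp against 17169 bp over all protein-coding genes.

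Calls were also counted by group, in patterns that the rule itself bears on and that were not tested. Both knockout-GFP libraries and neither control-GFP library called 1.72% of all merged regions and 7 of the 840 (0.833%). They were at Get1, which inserts tail-anchored proteins into the ER (mean percentile 61.0), the centromere protein Cenpu (53.2), the peptidase Thop1 (48.3), the nucleoporin Nup50 (46.1), Strada, which activates the kinase LKB1 (35.5), the heterochromatin protein Hp1bp3 (34.4) and Tomm20 (19.6), the last named outside the rule for this pattern. All 7 needed a knockout-Acsl4 peak to reach 3 lists, and Get1 scored 5.93, 6.90 and 4.42 in knockout-GFP library 1, knockout-GFP library 2 and knockout-Acsl4 library 1. The reverse pattern was found in 0.183% of all regions and in 0 of the 840. Without control-GFP library 1 the first count was 83 in 211 regions, so it turned on that library.

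Regions in both knockout-GFP libraries and neither knockout-Acsl4 library made up 9.03% of all regions and 632 (75.2%) of the 840, and the reverse 0.0147% and 0. The rule favours the first pattern, since 3 other lists supply most calls, and knockout-Acsl4 libraries 1 and 2 called 124 and 34 of the regions in all. The pattern includes Ifrd1, Samd4b, Tspan14 and Gpr155. Regions that both control-GFP libraries called and neither knockout-Acsl4 library called were 1.91% of all regions and 143 (17.0%) of the 840, and the reverse 0.022% and 0. Ifrd1, Opn3, Ehbp1 of endosomal trafficking (91.8), the aminopeptidase Dnpep (91.5), the phosphatase scaffold Ppp2r1a (90.9) and the histone methyltransferase Kmt5c (90.2) had the highest ranks among them. These comparisons share libraries and are not independent. Both knockout-Acsl4 libraries called 5 of the 840: Ripk2, Pwwp2a, Wipi1, Scai, a cofactor that represses SRF-dependent transcription, and P4ha1, a collagen prolyl hydroxylase. Scai scored 21.6, 4.89, 17.2, 3.74 and 2.66 in control-GFP library 1, knockout-GFP library 1, knockout-GFP library 2, knockout-Acsl4 library 1 and knockout-Acsl4 library 2. P4ha1 was low throughout, at 4.33, 6.58, 3.74 and 2.35 in control-GFP library 1, knockout-GFP library 2, knockout-Acsl4 library 1 and knockout-Acsl4 library 2.

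Ranks of the called regions were not shown to differ between the groups. The median percentile averaged 70.6 ± 4.41 in control-GFP, 66.7 ± 8.59 in knockout-GFP and 58.3 ± 14.1 in knockout-Acsl4 (SD, n = 2 each). Knockout-GFP minus control-GFP was −3.87, knockout-Acsl4 minus knockout-GFP −8.46 and knockout-Acsl4 minus control-GFP −12.3, each with a two-sided exact permutation p of 0.667, where 2 against 2 cannot go below 0.333. Without control-GFP library 1 the first difference was 7.72. The percent of regions called was 60.1 ± 54.1, 94.2 ± 7.66 and 9.40 ± 7.58 in the 3 groups (SD, n = 2 each), given with no test because presence in the lists chose the regions. Control-GFP library 2 was far below control-GFP library 1, and both knockout-Acsl4 libraries, which have the shortest and the longest list of the 6, were below all 4 others. Across shared regions, percentiles of control-GFP library 1 and knockout-GFP library 2 had a Spearman correlation of 0.54 (823 regions), above the 0.33 within control-GFP (176 regions) and the 0.33 within knockout-GFP (743 regions). These correlations are over regions, not samples.

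The window of 1000 bp cut through few regions. Midpoints had a median distance of 112 bp to the nearest boundary, and 54 of the 840 lay over 500 bp away. Just inside were the regions at the actin-regulating kinase Limk1 (996 bp), Tnrc6c of microRNA silencing (972.5 bp) and the protease gene Prss57 (971 bp). Just outside were those at Pnrc1, a nuclear receptor coactivator (1016.5 bp), the RNA-binding protein Rbm15 (1020 bp) and Iba57 of iron-sulfur cluster assembly (1038 bp), with mean percentiles of 69.8, 88.5 and 81.1, against 63.1, 78.9 and 79.5 inside.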

How the data were processed

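ATAC-seq peaks were analysed in 6 libraries. Per the labels' protocols, about 50 islets were lysed per sample and libraries were amplified with 12 PCR cycles and sequenced as paired 50 bp reads. The tools listed, per the submitters' processing notes, were MACS2 2.1.1, BWA 0.7.10, FastQC, SAMtools and Trimmomatic, with no role or setting given. The deposited files hold 1 peak list per library, without header, and give no read depth. The deposited value of each peak was taken to be a −log10 q-value from the authors' caller because every list begins just above 1.3, the −log10 of 0.05; this is inferred from the values. It is the authors' score of that peak, and served to rank peaks inside their own list.

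Human builds (hg38, GRCh38) appear in the notes. Chromosomes are those of mouse, so GRCm38 was assumed, and positions are 1-based. Gene boundaries came from the RefSeq table of GRCm38.p6 (21887 protein-coding genes), and strand, starts and sequences from its promoter table, which matched 697 of the 840 regions. No genome sequence was used here. Percentiles are ranks within a list. Motifs, 14 in all, were matched as exact letters on both strands.

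Members, gene lists and tests were chosen with earlier results of these data known. Named genes were Rictor, Acsl4 and Foxo1; regions in 6 lists and the 10 leading regions in 5; the 12 with the highest mean percentile; the 5 widest and 5 narrowest; up to 4 per class; up to 10 in both knockout-Acsl4 lists and up to 6 per other pattern between groups; and the 3 nearest the window limit on each side. Ano10, Matr3, Tmem267, Pop7, the regions without a listed start, those on chromosome X, and Dnajb9, Pdia4 and Atf3 were named after their values were seen. A gene that the rule selects is not reported here. Tests were exact permutations over libraries, two-sided. Merging and tests were checked on simulated data. Alternatives were windows of 500 and 3000 bp, at least 2 or 4 lists, autosomes, lists of equal length, only the better 50% of each list, overlap of 50% of the shorter peak, a replicate block and each library left out. Calculations used Python 3.11.15, numpy 2.4.6 and scipy 1.17.1.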

Additional observations from a re-analysis of the deposited data

How the results depend on the processing

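The number of recurrent 1-gene regions followed the lists: 402 with the better 50% of each list, 104 at equal list lengths, 1930 for at least 2 lists, 201 for at least 4 lists, and 201 to 827 without each library in turn. Their median width was 484 bp at equal list lengths and 483 bp for at least 4 lists, and 399 to 444 bp without each library. The share at a RefSeq start was 95.6% with a window of 3000 bp and 97.6% to 98.3% without each library. The held-out rank difference was 15.3 points at equal list lengths (exact permutation p = 0.188) and 36.7 to 41.4 points without each library, and the held-out share difference 25.8 to 35.1 points. With 5 libraries the smallest p is 0.0625. Peak width against regions of several genes was the least stable result: 7 bp with an overlap of 50%, 4.92 bp with the better 50% of each list, 7.17 and 4.50 bp with windows of 500 and 3000 bp, 1 bp for at least 2 lists, −2.67 bp for at least 4 lists, and −3.50 to 11.1 bp without each library, reversed without knockout-GFP library 1 (−3.40 bp) or 2 (−3.50 bp). The cause was not tested.

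The rank difference of knockout-GFP minus control-GFP was reversed for at least 4 lists (1.77) and without control-GFP library 1 (7.72) or knockout-GFP library 1 (4.42), in a range of −7.07 to 7.72 without each library. Knockout-Acsl4 minus knockout-GFP was 1.41 without knockout-Acsl4 library 1, in a range of −21.2 to 1.41, and knockout-Acsl4 minus control-GFP −22.5 to −2.29. Groups share replicate numbers 1 and 2 with no stated link. As a replicate block the 3 differences were again −3.87, −8.46 and −12.3, where the smallest p is 0.5. Deviations of same-numbered libraries correlated at −0.17, −0.23 and 0.28 over all merged regions in the 3 comparisons, and whether the numbers mark a link cannot be told from 2 libraries a group.

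Regions in both knockout-GFP libraries and neither control-GFP library numbered 3 with the better 50% of each list, 3 at equal list lengths, 150 for at least 2 lists and 0 for at least 4, and 0 to 83 without each library. The reverse was 2 at equal list lengths and 12 for at least 2 lists, and 0 to 8. Both knockout-GFP and neither knockout-Acsl4 gave 294, 38 and 88 with the better 50%, equal lengths and at least 4 lists, and 87 to 718; the reverse was 0 to 1. Both control-GFP and neither knockout-Acsl4 gave 84, 23 and 88, and 87 to 625; the reverse was 1 with the better 50%, and 0 to 4. With 1 library left in a group, its calls stand for the group. Alternatives for these counts, the RefSeq start share and the single regions were chosen after seeing the data. Mean percentiles of named regions were recomputed only where the region still met the conditions. Of these 1380 values, 1271 moved by no more than the spread between lists. Many of the 137 named regions left the set under some alternatives. With windows of 500 and 3000 bp 124 and 126 stayed, but 40 stayed at equal list lengths and 44 for at least 4 lists. Without control-GFP library 1, knockout-GFP library 1 or knockout-GFP library 2, 51, 55 or 45 stayed. Unknown read depth limits every absence of a peak.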
